A study of Oryctolagus cuniculus with 34 samples.

Results

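SPP1, GPNMB, TREM2, TYROBP and LAPTM5 are 5 genes expressed by macrophages that take up lipid and cell debris, and they were followed through 34 libraries of the rabbit supraspinatus, one of the shoulder's rotator cuff muscles. They were chosen by name, with earlier results of these data known, as 5 of the 18176 genes counted. Of the 5, 4 were read by symbol. TREM2 was read from the row LOC100348748, whose gene number belongs to TREM2 in RefSeq (rabbit assembly mOryCun1.1, used for names only). The short-term groups were repair only (5 muscles), repair with a matrix gel derived from tissue (5) and injury only (4). The long-term groups were repair only (5 muscles), matrix gel treated (5) and uninjured (10). The labels name no strain, age, sex or number of days, and they do not state whether each library of a group is from its own animal, so the p-values measure the spread between these samples, which may in part be technical. Codes in the names of the deposited data differ within each group and tie every operated muscle of the long term to 1 uninjured muscle.

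TREM2 is a receptor on macrophages that binds lipids and lipoproteins, and it signals through TYROBP, an adaptor with an activating cytoplasmic motif that serves several receptors of myeloid and natural killer cells. GPNMB is a glycoprotein of lysosomes and the cell surface that rises in macrophages loaded with lipid. SPP1 encodes osteopontin, a secreted protein that binds integrins and CD44 and is also made by bone cells, cartilage cells and regenerating muscle. LAPTM5 is a lysosomal membrane protein of blood-derived cells that takes part in the degradation of immune receptors. In injured muscle such macrophages clear dead fibres, and in chronic rotator cuff disease the muscle is known for scarring and fat accumulation.

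Values are counts per 1000000 counts of the library (CPM). The 14 short-term libraries held between 26904529 and 32313295 counts each, and the 20 long-term ones between 12582302 and 15019158. The muscle fibre markers ACTA1, CKM, MYH1 and TTN summed to between 53140 and 181200 CPM, so every library carried the labelled tissue. Some libraries stood apart from their groups before any comparison was made. In injury replicate 3 all 5 genes were at the highest level of the injury group, and in short-term repair replicate 4 all 5 were at the lowest level of the repair group. The 12 macrophage markers measured had a summed level of 170 CPM in that injury library against 15.3 to 34.6 in the other 3, and of 15.8 CPM in that repair library against 120.1 to 463.2 in the other 4. These 2 libraries had also been set apart by earlier results of these data, and the short-term comparisons with injury are given with and without them.

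**Figure D1:**
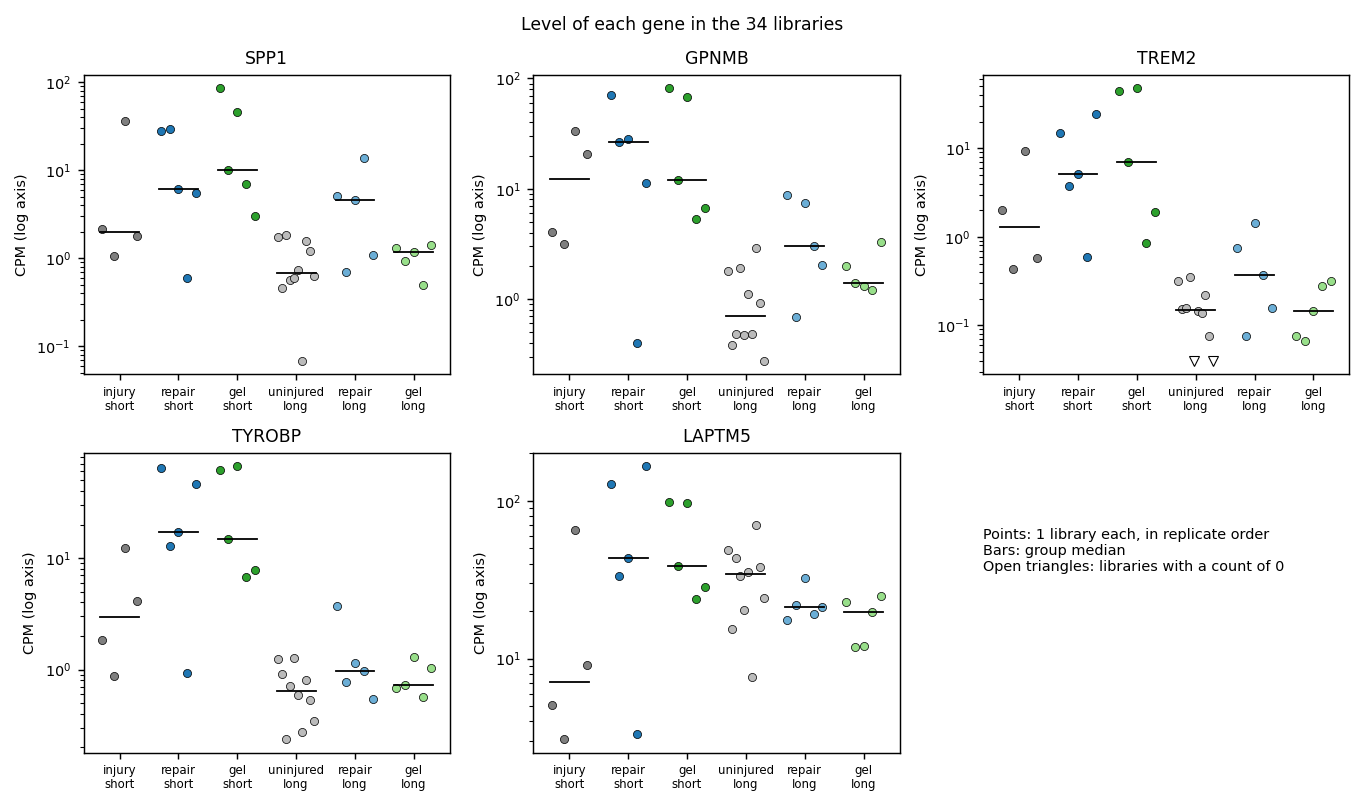
CPM of each gene (log axis) in the 34 libraries by group, with 1 point per library in replicate order, the group median as a bar, and open triangles for the 2 libraries with a TREM2 count of 0. Points of the short-term groups spread over more than 10-fold for most genes, and LAPTM5 is the gene whose uninjured muscles lie above most long-term operated ones.

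The first question was how gel-treated and repair-only muscles compared at the short term. Levels of the 5 genes spread widely within both groups, and 0 of the 5 passed edgeR's quasi-likelihood test. The threshold throughout is a Benjamini-Hochberg adjusted p under 0.05 over all genes tested. It called 0 of 13526 genes here (0%), with 1404 at an unadjusted p under 0.05, 125 called by DESeq2 and 3 by limma voom with sample quality weights.

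TREM2, the lipid receptor, was at 14.9, 3.71, 5.18, 0.599 and 24.2 CPM in the 5 repaired muscles and at 43.9, 7.01, 47.8, 0.861 and 1.92 CPM in the 5 with gel. Gel replicates 1 and 3 lay above every repaired muscle, and the groups overlapped. The fitted log2 difference, gel minus repair, was 1.25 with a standard error (SE) of 1.03 (edgeR adjusted p = 0.679). TYROBP, its adaptor, was at 63.9, 12.7, 17.3, 0.931 and 46.1 CPM with repair and at 61.6, 14.9, 66.4, 6.71 and 7.78 CPM with gel. Only gel replicate 3 exceeded the highest repaired muscle, and the log2 difference was 0.40 (SE 0.81, edgeR adjusted p = 0.881).

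SPP1, the secreted ligand, was at 27.6, 29.4, 6.05, 0.599 and 5.46 CPM with repair and at 85.4, 10.1, 45.9, 6.96 and 2.98 CPM with gel. Gel replicates 1 and 3 were again above all repaired muscles, with a log2 difference of 1.35 (SE 1.03, edgeR adjusted p = 0.655). GPNMB was at 70.9, 26.5, 28.5, 0.399 and 11.2 CPM with repair and at 81.7, 12.1, 68.3, 5.27 and 6.75 CPM with gel. Its log2 difference was 0.57 (SE 0.92, edgeR adjusted p = 0.845) and depended on gel replicate 1, without which it was -0.0042.

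LAPTM5, the lysosomal protein, was at 128.9, 33.3, 43.8, 3.33 and 165.5 CPM with repair and at 99.0, 38.5, 97.4, 24.0 and 28.6 CPM with gel. The repaired muscles reached both higher and lower than the gel muscles, and the log2 difference of -0.11 (SE 0.77, edgeR adjusted p = 0.972) became 0.43 without repair replicate 5. In all 5 genes gel replicates 1 and 3 held the highest 2 levels of the gel group. Their summed macrophage markers were 395.7 and 326.9 CPM, against 69.0 to 112.8 in gel replicates 2, 4 and 5. The part of macrophage number in these levels was not tested, and in whole muscle fewer cells of a type and less RNA per cell cannot be told apart.

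The next comparisons set repair and repair with gel against injury only in the short term. Across the 4 injured muscles, TREM2 was at 1.99, 0.433, 9.29 and 0.577 CPM and TYROBP at 1.83, 0.867, 12.3 and 4.10 CPM. SPP1 was at 2.15, 1.05, 36.5 and 1.80 CPM there, GPNMB at 4.02, 3.13, 33.4 and 20.6 CPM, and LAPTM5 at 5.06, 3.10, 65.7 and 9.10 CPM. The third injured muscle was within the range of the repaired ones in TREM2, TYROBP, GPNMB and LAPTM5, and the second had the lowest level of the group in all 5 genes.

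With all libraries, 0 of the 5 genes passed the test against injury, with either treatment. Repair minus injury gave log2 differences of 2.28 for TYROBP (SE 0.93, edgeR adjusted p = 0.326), 1.71 for LAPTM5 (SE 0.86, p = 0.359), 1.45 for TREM2 (SE 1.13, p = 0.499), 0.52 for GPNMB (SE 0.99, p = 0.788) and 0.34 for SPP1 (SE 1.09, p = 0.880). Gel minus injury gave 2.70 for TREM2 (SE 1.19, edgeR adjusted p = 0.250), 2.68 for TYROBP (SE 0.95, p = 0.189), 1.69 for SPP1 (SE 1.13, p = 0.441), 1.60 for LAPTM5 (SE 0.86, p = 0.331) and 1.09 for GPNMB (SE 1.00, p = 0.589). Leaving out injury replicate 3 alone moved SPP1 to 2.19 with repair and 3.54 with gel, so the order of the 5 genes was not stable. In both comparisons edgeR called 0% of the 13526 genes, although 1973 (repair) and 2493 (gel) had an unadjusted p under 0.05. For these 2 comparisons the calls of DESeq2 numbered 231 and 788, and those of limma voom 4703 and 3795.

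Leaving out injury replicate 3 and repair replicate 4 removes the highest injured and the lowest repaired level of each gene, so larger differences from injury follow from the choice itself, and the values below are given as a description. Repair minus injury was then 3.13 for TYROBP (edgeR adjusted p = 0.0182) and 3.19 for LAPTM5 (p = 0.00578), in a fit that called 33.3% of all genes. Gel minus injury was 3.54 for SPP1 (edgeR adjusted p = 0.0369), 3.24 for TYROBP (p = 0.0258) and 2.79 for LAPTM5 (p = 0.0141), where 18.9% of genes were called. TREM2 and GPNMB passed in neither. With all libraries kept, DESeq2 called TYROBP with gel (adjusted p = 0.0292), among 5.84% of genes. Limma voom, which gives outlying libraries less weight, called LAPTM5 with repair (adjusted p = 0.0166) among 34.8% of genes, and TYROBP (0.0371) and LAPTM5 (0.00972) with gel among 28.1%. With all 34 libraries of both terms in one edgeR fit, TYROBP passed with repair (adjusted p = 0.04805), among 4.84% of genes. In that fit TREM2 (0.0479) and TYROBP (0.0207) passed with gel, among 8.39%. The calls against injury thus differed between these fits.

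**Figure D2:**
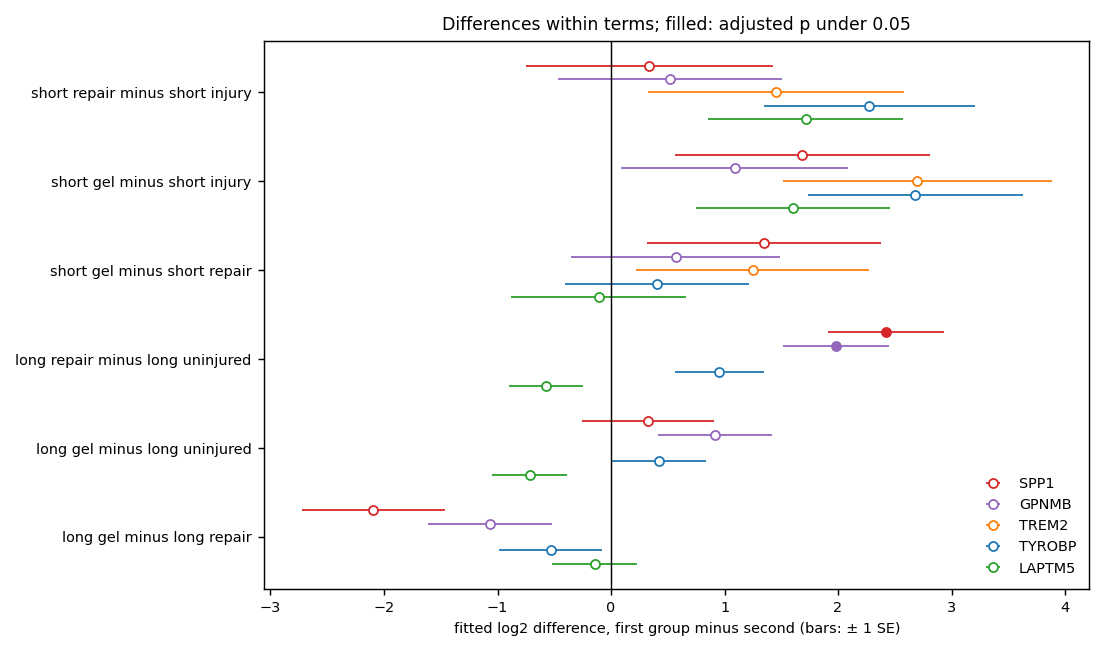
Fitted log2 difference (first group minus second, horizontal axis) of each gene in 6 comparisons within a term, with bars of 1 SE on each side and filled points for an adjusted p under 0.05. Only SPP1 and GPNMB in long-term repair minus uninjured muscle are filled, at 2.42 and 1.98, while LAPTM5 lies on the other side of 0 there. TREM2 has no point in the long term because it was below the filter on low counts.

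In the long term, repaired muscle was compared with uninjured muscle. SPP1 and GPNMB were higher after repair in the fit of all 20 libraries, and neither call held when the animal was blocked. TREM2 and TYROBP had differences above 0 and LAPTM5 one below 0, and these did not pass after adjustment. Of the 5 genes, 4 passed the filter on low counts in these 20 libraries, and 2 of the 4 passed the test, where edgeR called 117 of 11605 genes (1.01%).

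Osteopontin's gene SPP1 was at 5.03, 0.690, 4.62, 13.8 and 1.10 CPM in the 5 repaired muscles. In the 10 uninjured muscles its lowest level was 0.0684, its median 0.676 and its highest 1.83 CPM. Repair replicates 1, 3 and 4 lay above every uninjured muscle and the other 2 within their range, with a log2 difference of 2.42 (SE 0.51, edgeR adjusted p = 0.0226). GPNMB was at 8.78, 0.690, 7.49, 3.04 and 2.04 CPM after repair and at 0.276 (lowest), 0.696 (median) and 2.88 CPM (highest) in uninjured muscle. The same 3 repaired muscles were above every uninjured one, with a log2 difference of 1.98 (SE 0.47, edgeR adjusted p = 0.0390).

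Against the uninjured muscle with the same animal code, GPNMB was higher in 5 of 5 repaired muscles and SPP1 in 4 of 5. The median log2 difference within animals was 2.16 for GPNMB (0.69 to 3.54) and 1.42 for SPP1 (-0.074 to 6.39). The SPP1 maximum came from repair replicate 4, at 13.8 CPM against 0.0684 CPM in its partner, which had the lowest SPP1 level of all 10 uninjured muscles (1 count). With the animal as a replicate block, the log2 differences were 2.13 for SPP1 and 2.23 for GPNMB, neither gene passed (edgeR adjusted p = 0.561 for each), and 0 genes passed in all, with 821 at an unadjusted p under 0.05. Neither gene passed under limma voom (adjusted p = 0.0891 for SPP1 and 0.0680 for GPNMB), with only the 2 groups in the fit (0.0628 and 0.0828) or with all 34 libraries in it (0.228 and 0.356). DESeq2 called both, among 2.02% of all genes. Both edgeR calls were also lost without repair replicate 1, 3 or 4, one at a time, with log2 differences of 1.53 to 2.47 for SPP1 and 1.62 to 2.07 for GPNMB. GPNMB's call was lost as well without uninjured replicate 2, 3, 5, 6, 7, 9 or 10, one at a time (edgeR adjusted p = 0.0631 to 0.0792).

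The highest SPP1 and the highest GPNMB came from different repaired muscles. GPNMB was highest in repair replicates 1 and 3, which also had the highest sums of the macrophage markers (71.8 and 39.7 CPM, against 13.5 to 21.3 in the other 3) and of the adipocyte markers ADIPOQ, LEP, CIDEA and CIDEC (706.5 and 505.9 CPM, against 141.5 to 257.8). SPP1 was highest in replicate 4, where the macrophage markers summed to 21.3 CPM and the cartilage and bone markers to 76.1 CPM, against 12.6 to 31.2 CPM in the other 4. In short-term repair replicate 5 the cartilage and bone markers summed to 158.9 CPM, with SPP1 at 5.46 CPM. In short-term gel replicate 3 they summed to 87.5 CPM, with SPP1 at 45.9 CPM. BGLAP, which encodes the bone protein osteocalcin, was at 0 in all groups. The part of these cell types in either gene was not tested.

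TYROBP was at 3.68, 0.767, 1.14, 0.964 and 0.548 CPM after repair and at 0.238 (lowest), 0.645 (median) and 1.27 CPM (highest) in uninjured muscle. Only repair replicate 1 exceeded every uninjured muscle, and the log2 difference of 0.95 (SE 0.39, edgeR adjusted p = 0.322) was 0.31 without it. TREM2, below the filter, had 10, 1, 19, 5 and 2 counts after repair (0.751, 0.0767, 1.44, 0.371 and 0.157 CPM) and 0 to 5 counts in uninjured muscle. The 2 uninjured libraries at 0 allow up to 0.2 and 0.207 CPM, the level of 3 counts, which covers counting error only. Its mean log2 CPM was 1.09 higher after repair, with p = 0.0476 by a 2-sided exact permutation test (0.143 after adjustment over the 3 such tests made), and in 11 of 15 tests that left out 1 library the unadjusted p was above 0.05. Without the filter, edgeR gave 1.72 (adjusted p = 0.181).

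LAPTM5 was at 17.6, 21.9, 32.4, 19.1 and 21.2 CPM after repair and at 7.66 (lowest), 34.2 (median) and 70.7 CPM (highest) in uninjured muscle. None of the 5 repaired muscles reached the uninjured median, and 6 of 10 uninjured muscles lay above the highest repaired one. The log2 difference was -0.57 (SE 0.33, edgeR adjusted p = 0.533), and within animals LAPTM5 was higher after repair in 3 of 5. In the same libraries 8 of 8 macrophage markers tested had a log2 difference above 0, with a median of 0.89, and 0 of the 8 passed the test. The median LAPTM5 level in uninjured muscle, 34.2 CPM, was above the median sum of the 12 macrophage markers measured, 15.5 CPM. Which cells held LAPTM5 there was not tested.

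**Figure D3:**
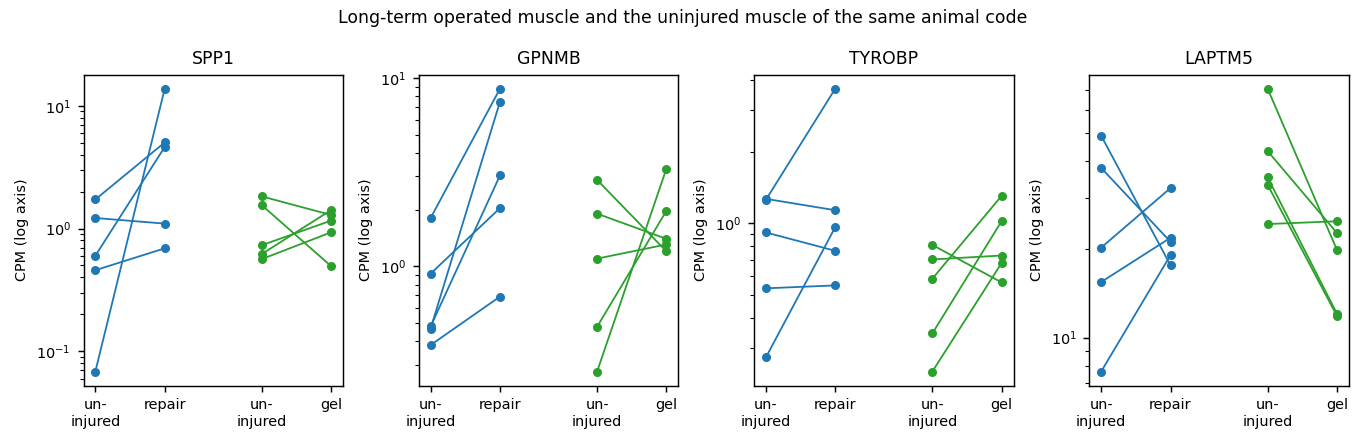
CPM (log axis) of SPP1, GPNMB, TYROBP and LAPTM5 in each long-term operated muscle and the uninjured muscle with the same animal code, joined by a line, with repair in blue and repair with gel in green. GPNMB lines go up in 5 of 5 repaired muscles, and the steepest SPP1 line ends at 13.8 CPM in repair replicate 4.

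The gel muscles of the long term were compared with uninjured and with repaired muscles. SPP1 was at 1.29, 0.932, 1.16, 0.494 and 1.42 CPM with gel, all within the uninjured range, and 3 repaired muscles lay above all of them. Gel minus repair gave a log2 difference of -2.10 for SPP1 (SE 0.63, edgeR adjusted p = 0.302), which did not pass, and gel minus uninjured gave 0.33 (SE 0.59, p = 0.794). Without repair replicate 4 the first of these was -1.203.

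GPNMB was at 1.97, 1.40, 1.31, 1.199 and 3.31 CPM with gel, of which 1 lay above every uninjured muscle. It had log2 differences of -1.07 from repair (SE 0.55, edgeR adjusted p = 0.375) and 0.92 from uninjured muscle (SE 0.50, p = 0.399). TYROBP was at 0.683, 0.732, 1.31, 0.564 and 1.02 CPM with gel, with log2 differences of -0.53 from repair (SE 0.46, edgeR adjusted p = 0.569) and 0.42 from uninjured muscle (SE 0.41, p = 0.624). Blocking by animal, which sets each operated muscle against the uninjured one of the same code, gave 0.30 for the first of these. Leaving out repair replicate 1 turned it to 0.11. TREM2 had 1, 1, 2, 4 and 4 counts with gel (0.0758, 0.0666, 0.145, 0.282 and 0.315 CPM). Its mean log2 CPM differed by -0.83 from repair and 0.26 from uninjured muscle (2-sided exact permutation p = 0.190 and 0.517). Without the filter, edgeR gave -1.44 against repair, with p = 0.0406 before and 0.398 after adjustment.

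LAPTM5 was at 22.8, 11.9, 12.1, 19.9 and 24.95 CPM with gel. As after repair, none of the 5 reached the uninjured median. It differed from uninjured muscle by -0.72 on the log2 scale (SE 0.33, edgeR adjusted p = 0.350) and from repair by -0.14 (SE 0.37, p = 0.859). On the scaled log2 values LAPTM5 was lower than in the uninjured muscle of the same code in 5 of 5 gel muscles, with differences of -1.59 to -0.033. In the smallest of these pairs the plain CPM were 24.95 with gel and 24.41 uninjured, so that unscaled the count is 4 of 5. EdgeR called 0 of 11605 genes between gel and repair (0%), with 1648 at an unadjusted p under 0.05, 7 called by DESeq2 and 0 by limma voom. It called 1 between gel and uninjured muscle (0.00862%), and none of the 4 genes tested here passed in either comparison.

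Between the terms, the fitted differences were below 0 for all 5 genes with either treatment, and 4 genes passed in gel muscle and 3 in repaired muscle. In gel muscle the log2 difference, long minus short, was -6.35 for TREM2 (SE 1.06, edgeR adjusted p = 1.72e-05), -4.74 for TYROBP (SE 0.75, p = 7.69e-06), -4.37 for SPP1 (SE 0.96, p = 0.000458) and -3.79 for GPNMB (SE 0.83, p = 0.000463). In these 4 genes every long-term gel muscle lay below every short-term one. Such a gap was found for 30.4% of all genes, and edgeR called 6252 of 12935 genes (48.3%). LAPTM5 had a log2 difference of -1.23 (SE 0.60, edgeR adjusted p = 0.0869). It passed under limma voom (adjusted p = 0.0148, with 60.9% of genes called) and with only these 2 groups in the edgeR fit (0.0229, with 40.3%).

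In repaired muscle 3 of the 5 genes were lower in the long term, where 5972 of 12935 genes (46.2%) were called. The log2 differences, long minus short, were -3.86 for TYROBP (SE 0.71, edgeR adjusted p = 7.28e-05), -3.67 for TREM2 (SE 0.90, p = 0.00153) and -2.21 for GPNMB (SE 0.77, p = 0.0190). SPP1 had a log2 difference of -0.97 (SE 0.82, edgeR adjusted p = 0.339) and LAPTM5 one of -1.25 (SE 0.59, p = 0.0847). Without short-term repair replicate 4, LAPTM5 passed (-1.54, edgeR adjusted p = 0.0175, with 53.1% of genes called). Without short-term repair replicate 1 (-1.595, p = 0.0936) or long-term repair replicate 2 (-1.95, p = 0.0521), or with only the 2 groups in the fit (p = 0.0702), GPNMB did not. The median of all genes was -0.11 in this comparison. The markers of other cells moved too: 10 of 11 macrophage markers were lower in gel muscle and 8 of 11 in repaired muscle (medians of -3.69 and -2.64), with 1 higher in each. So were 9 and 7 of 11 leukocyte genes, 4 of 5 fibroblast markers and 4 of 4 cell cycle genes with each treatment, and their part in the members' differences was not tested. Term, sequencing depth and the naming style of the deposited columns change together. Term thus cannot be told apart from depth or from any other difference in handling that goes with it. The difference between the gel's log2 effect in the long term and in the short term was -3.40 for SPP1 (SE 1.22, edgeR adjusted p = 0.278), -2.68 for TREM2 (p = 0.418), -1.58 for GPNMB (p = 0.552), -0.89 for TYROBP (p = 0.745) and 0.017 for LAPTM5 (p = 0.999). None passed, and 2 of 12935 genes did (0.0155%).

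The genes were then set against the macrophage markers, as the log2 CPM of a gene minus the mean log2 CPM of 11 markers in the same library. TYROBP stood above the marker mean in the short term, with medians of 0.58 (injury), 1.18 (repair) and 1.28 (gel), and below it in the long term, at -0.42 (uninjured), -0.51 (repair) and -0.41 (gel). TREM2 had medians of -0.44, -0.61 and 0.20 in the short term and of -2.003, -1.907 and -2.33 in the long term, where its counts were near 0. LAPTM5 went the other way, with short-term medians of 2.16 to 2.64 and long-term medians of 5.22 in uninjured muscle, 3.96 after repair and 4.08 with gel. SPP1 overlapped between all 6 groups on this scale. GPNMB lay higher in injured muscle (1.70 to 3.38) than in any library of the 3 long-term groups (-0.96 to 1.68) and overlapped between the other groups. The marker mean was itself low in the long term, with median log2 CPM of -0.15 (uninjured), 0.43 (repair) and 0.51 (gel). In the short term these were 0.90 (injury), 2.83 (repair) and 2.69 (gel). Of the 12 macrophage markers measured, 8 passed the filter on low counts in the long term. The part of low counts in the shifts between terms was not tested. These are descriptions, and FCER1G and CSF1R, among the genes most like TYROBP, are themselves in the marker list.

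**Figure D4:**
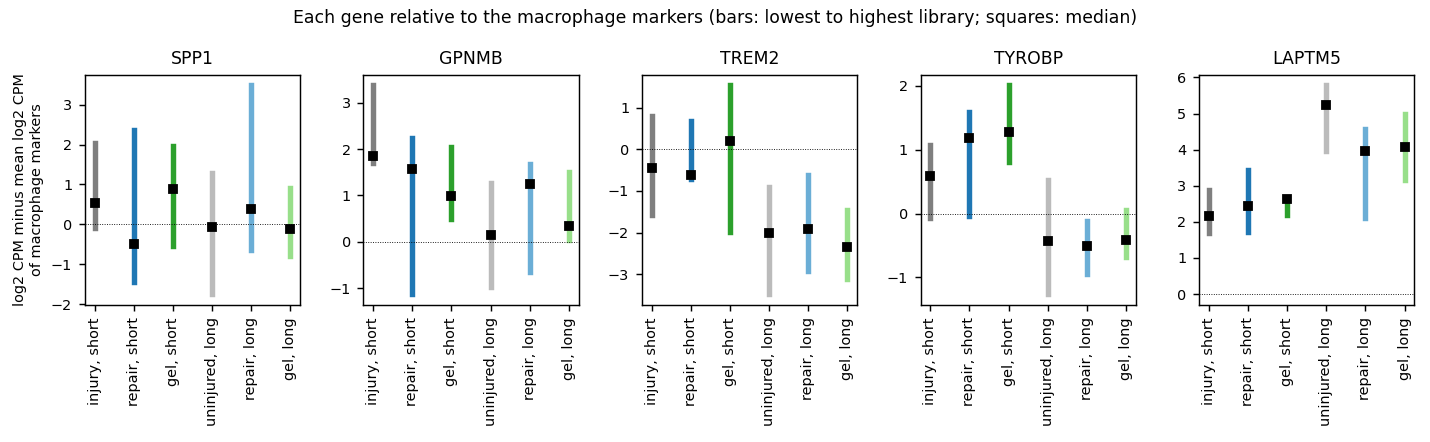
Log2 CPM of each gene minus the mean log2 CPM of 11 macrophage markers in the same library (vertical axis, log2 units), by group, with the range over libraries as a bar and the median as a square. TYROBP and TREM2 sit lower in the 3 long-term groups, and LAPTM5 sits higher there, with its highest median of 5.22 in uninjured muscle.

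How the 5 genes varied together was measured as correlations of log2 CPM around the group means, 30 in all, each with a permutation p adjusted over the 30. In the 14 short-term libraries 10 of 10 pairs passed, with Pearson's r from 0.703 (GPNMB with TREM2) to 0.95 (TYROBP with LAPTM5) and Spearman's rho from 0.666 to 0.934. TYROBP with LAPTM5 had a rho of 0.934, permutation p-values of 2e-05 for r and 1e-05 for rho (adjusted 0.0006 and 0.0003), of which 1e-05 is the smallest that the resampling can give, and an r of 0.908 without the 2 libraries farthest from the median. For GPNMB with TREM2, which had a rho of 0.771, the permutation p was 0.0117 for r and 0.00798 for rho (adjusted 0.0319 and 0.0266), and r was 0.531 without the 2 farthest libraries.

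Many other genes varied with these 5 in the same libraries. An r with TYROBP at least as high as that of LAPTM5 was found for 55 other genes (0.425% of all), and an r with LAPTM5 at least as high as that of SPP1 (0.737) for 2258 (17.5%). Over all the short-term pairs, taken from either gene, this share ran from 0.101% to 17.5%. The share of all gene pairs that would pass is not given here. Injury replicate 3, repair replicate 4 and gel replicates 1 and 3 lay at the ends of their groups in all 5 genes. Their part in the 10 correlations was not tested.

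In the 10 long-term operated libraries 0 of 10 pairs passed (r from -0.441 to 0.785), and in the 10 uninjured libraries 1 of 10 did. That pair was SPP1 with LAPTM5, with an r of 0.922 and a rho of 0.927 (permutation p = 0.00032 and 0.00029, adjusted 0.0024 and 0.00352), and an r of 0.836 without the 2 farthest libraries. An r with SPP1 at least as high was found for 10 other genes (0.0773%). TYROBP with LAPTM5, the closest pair of the short term, had an r of 0.126 in uninjured muscle and -0.441 in long-term operated muscle. Its rho was -0.03 and -0.067 in these sets, and its r without the 2 farthest libraries was 0.493 and 0.275. The negative r in operated muscle thus depended on few libraries. The difference between these sets of libraries was not tested. Among uninjured muscles LAPTM5 was highest in replicates 8 (70.7 CPM) and 1 (48.9 CPM), whose fibre markers had the lowest sums (118600 and 109500 CPM). It was lowest in replicate 7 (7.66 CPM), where the fibre markers had the highest sum, 166900 CPM. The part of fibre content in the correlation was not tested.

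**Figure D5:**
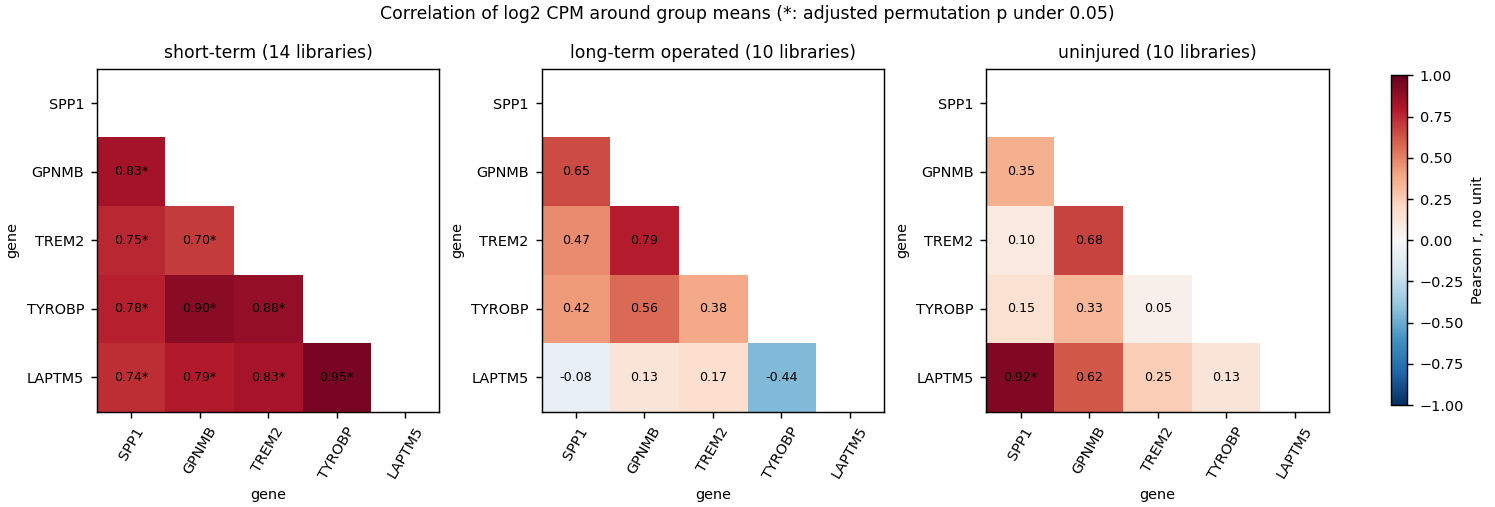
Pearson's r (colour and printed value, no unit) between each pair of genes, from log2 CPM around group means, in 14 short-term, 10 long-term operated and 10 uninjured libraries. All 10 short-term pairs carry the star of an adjusted permutation p under 0.05, no long-term operated pair does, and in uninjured muscle only SPP1 with LAPTM5 does, at 0.92.

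The genes with the most similar pattern over the 34 libraries, by Pearson's r around group means among 12047 genes, differed from member to member. TYROBP was closest to CSF1R (r = 0.913), the receptor for macrophage growth factor, and FCER1G (0.913), another adaptor of immune receptors, followed by C3, VSIG4 and CYTH4. TREM2 was closest to CD14 (0.868), the co-receptor for bacterial lipopolysaccharide, then IFNGR1, NCKAP1L, GMIP and CD48. GPNMB was closest to CD48 (0.857) and LGALS3 (0.849), a galectin of activated macrophages, then KIF21B, TSPAN11 and SFRP2.

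SPP1 was closest to FBLN7 (0.852), a fibulin of the extracellular matrix, then EMP1, LAYN, ADAM17 and CGNL1. None of these is in the list of macrophage markers, which holds equally for the genes named for GPNMB and for LAPTM5. ADAM17 is in the list of signalling partners of TREM2 and TYROBP. FBLN7 had an r of 0.839 in short-term, 0.933 in long-term operated and 0.863 in uninjured libraries. LAPTM5 was closest to NECAP2 (0.906), an endocytic protein, then SH3BP2, CMTM6, PARP3 and TMSB10. NECAP2 followed it with an r of 0.988 in the short term and 0.821 in uninjured muscle, but 0.111 in long-term operated muscle. These correlations are descriptions over libraries that share depth and processing within a term.

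The other genes of these pathways moved as follows. In the 3 short-term comparisons and in the long-term comparisons of gel, none of the genes in the pathway lists passed the test. After long-term repair, 2 of 22 lipid handling and lysosome genes tested were higher than in uninjured muscle and 0 were lower: APOE, the lipoprotein ligand of TREM2, by 1.61 on the log2 scale (SE 0.31, edgeR adjusted p = 0.0135), and FABP4, a fatty acid carrier of adipocytes and macrophages, by 1.56 (SE 0.30, p = 0.0135). Of all genes 1.01% passed there. The median of the 22 was 0.24, and that of all genes was -1.22e-05. In the same comparison 3 of 4 adipocyte markers rose, LEP by 3.39, CIDEC by 2.25 and CIDEA by 2.21. None of these calls held with the animal as a block, where 0 of 11605 genes passed. In gel muscle APOE differed from uninjured muscle by 1.12 (SE 0.31, edgeR adjusted p = 0.325). FABP4 differed from repair by -1.37 there (SE 0.36, edgeR adjusted p = 0.302), and neither passed.

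None of 11 signalling partners of TREM2 and TYROBP, 9 osteopontin receptors, 10 MITF and TFE family genes with lysosomal targets or 8 leukocyte genes passed in long-term repair minus uninjured muscle. The smallest p-values were those of GRB2 (log2 -0.31, edgeR adjusted p = 0.208) and CSF1 (0.58, p = 0.242) among the partners and of ITGA9 (1.02, p = 0.160) and CD44 (0.71, p = 0.211) among the osteopontin receptors. The bone-resorbing protease CTSK, a marker of osteoclasts that fibroblasts also express, rose by 0.93 (SE 0.20, edgeR adjusted p = 0.0236), as the only osteoclast marker of 5 that passed the filter, and this call too was lost with the animal as a block.

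Between the terms, 10 of 17 signalling partners were lower in long-term repaired muscle and 14 of 17 in gel muscle, with 0 higher in either. In repaired muscle these included MS4A4A (log2 -4.40, edgeR adjusted p = 0.000106), a membrane protein linked to TREM2 processing, and HCST (-3.70, p = 0.00156), an adaptor that works alongside TYROBP. Of 25 lipid handling and lysosome genes, 15 were lower and 2 higher in repaired muscle, and 17 lower and 1 higher in gel muscle. The lysosomal growth factor GRN was lower in repaired (-1.50, edgeR adjusted p = 3.89e-05) and gel muscle (-1.60, p = 1.32e-05), whereas the fatty acid genes CD36 (1.55, p = 0.00101) and LPL (1.63, p = 0.00774) were higher in repaired muscle.

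Among 10 osteopontin receptors 4 were lower and 1 higher in repaired muscle, and 3 lower and 0 higher in gel muscle. Integrin ITGA4 was lower in both, by -3.49 in repaired (edgeR adjusted p = 0.000459) and -3.53 in gel muscle (p = 0.000751). In the MITF and TFE list of 11 genes tested, 3 were lower in each treatment, and 1 (repair) and 2 (gel) were higher. MITF itself was higher in the long term, by 1.44 with repair (edgeR adjusted p = 6.33e-05) and 1.25 with gel (p = 0.000264), and its relative TFEC was lower, by -2.24 (p = 0.0204) and -3.42 (p = 0.0018). These counts stand beside the 46.2% and 48.3% of all genes called in the same comparisons.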

How the data were processed

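Each library's deposited values were unnormalized whole-number read counts per gene. The submitters' processing notes list STAR, edgeR and OryCun2.0. The sources used here do not give versions, the counting tool or strand use, so near-identical or overlapping genes cannot be told apart. Entries turned into dates (26, at most 0.163% of a library) were left out and 7 repeated symbols summed. Among 91 pairs within groups, 0 were identical (lowest chi-square per degree of freedom 9.86).

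Counts were fitted in R 4.3.3 with edgeR 4.0.16 (TMM, filtering by expression, robust quasi-likelihood, 2-sided): short-term libraries together, long-term together, and all 34 for terms. limma 3.58.1 (voom) and DESeq2 1.42.0 were alternatives, beside DESeq2 size factors, no filter, other sets of libraries, replicate blocks and each replicate left out. The edgeR code was tested on simulated data. Log2 CPM used a prior count of 2. Correlations used 100000 permutations (scipy 1.17.1).

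Groups came from titles. Animal codes in the file names link operated and uninjured muscles and were used as a block. Deviations of the 10 pairs correlated at -0.19 to 0.32, above 0.1 in 6. Members and gene lists were chosen with earlier results of these data known. The genes named are the members, up to 3 per list and direction past the threshold by p (of pathway lists with none, up to 2), and the 5 most alike in pattern. From these, the text names a selection.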

Additional observations from a re-analysis of the deposited data

Results flagged for a closer look

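In 30 sets of a gene and a group, 3 had 1 library far from the rest of its group by Dixon's criterion. Chance meets it in about 1 in 20 sets of normally distributed values. The criterion was applied to plain CPM, for which that rate need not hold. Nor are the sets independent, as the SPP1 and LAPTM5 flags came from the same library. SPP1 was at 36.5 CPM and LAPTM5 at 65.7 CPM in short-term injury replicate 3, where the other 3 injured muscles had 1.05 to 2.15 and 3.10 to 9.10 CPM. TYROBP was at 3.68 CPM in long-term repair replicate 1, where the other 4 repaired muscles had 0.548 to 1.14 CPM.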

How the results depend on the processing

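Of 853 alternative values for single genes, 774 kept their direction and side of the threshold, 18 newly passed it, 37 no longer passed and 24 changed sign. In these counts TREM2 within the long term, where it was below the filter, was judged by an unadjusted p under 0.05. Its repair minus uninjured difference, which did not pass after adjustment, supplied 11 of the 37. Its unfiltered edgeR value in gel minus repair (p = 0.0406 before and 0.398 after adjustment) was among the 18. The number of the 5 genes called in repair against injury was 0 in the main fit, where 0% of all genes were called. It was 1 under limma voom (34.8% of all genes), 1 with all 34 libraries in one fit (4.84%) and 2 without injury replicate 3 and repair replicate 4 (33.3%). In gel against injury the number was 0 in the main fit (0% of all genes) and 1 under DESeq2 (5.84%). It was 2 under limma voom (28.1%), 2 with all 34 (8.39%) and 3 without those 2 libraries (18.9%). In long-term repair against uninjured muscle it went from 2 to 0 under limma voom, only the groups compared, all 34 libraries, the replicate block by animal code and that by title number, and was 0 to 2 with 1 library left out. Of all genes 1.01% were called in that main fit. The share was 0% to 0.549% in the alternatives named that did not leave out a library. For the fits with 1 library left out the share is not given here. The cause of these changes was not tested. Leaving out long-term gel replicate 1, which earlier results set apart, changed no call within the long term. Every sign change was in a difference that had not passed. In short-term gel minus repair, GPNMB was -0.014 under limma voom and -0.0042 to 1.17 with 1 library left out. LAPTM5 there was 0.41 under limma voom, 0.29 with the replicate block by title number and -0.41 to 0.43 with 1 left out. With 1 left out, repair minus injury was -0.20 to 2.19 for SPP1 and -0.11 to 0.86 for GPNMB. TYROBP in long-term gel minus repair was 0.30 with the replicate block by animal code, which compares through the uninjured muscles, and -0.73 to 0.11 with 1 left out. The difference of gel effects for LAPTM5 was -0.81 under limma voom and -0.53 to 0.32 with 1 left out. Replicate numbers in the titles only share a number: deviations of the 18 same-numbered pairs correlated at -0.39 to 0.41, and 5 exceeded 0.1. Depth limits TREM2 most, with 0 to 19 counts in a long-term library.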
